A study of Schizosaccharomyces pombe with 6 samples.

Results

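The hexose transporter family of the fission yeast Schizosaccharomyces pombe was examined in poly(A)-selected RNA of whole cells. The family was taken by gene symbol as ght1 to ght8, which gave 8 genes of the 5160 in the deposited table, and no expression value entered that choice. All 8 passed the filter on low counts. The study compared 3 libraries of the wild type with 3 libraries of a dsk1 mutant. Dsk1 is a protein kinase that phosphorylates SR proteins, which take part in splicing. The mutant is called a deletion in the series text but a knockdown in its genotype label. No other allele, mating type, medium, glucose concentration or cell density is given in the labels, so the glucose supply at harvest is not known for any library. The labels also do not say whether replicates were separate cultures, so p-values measure the spread between these libraries, which may be technical.

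Hexose transporters of this family are membrane proteins of the major facilitator superfamily that carry sugars into the cell together with protons. Ght5 is the high-affinity glucose transporter on which growth at low glucose depends. Its gene is repressed by the zinc finger protein Scr1, and the AMP-activated kinase Ssp2 relieves that repression when glucose becomes scarce. Ght1 and Ght2 also carry glucose, Ght6 prefers fructose and Ght3 carries gluconate, while Ght8 and Ght7 are annotated as transporters from their sequence.

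Library totals were 15700362 to 19020530 counts, and the family took 0.27% to 0.425% of the counts in the wild-type libraries and 0.186% to 0.246% in the mutant libraries. Levels of one gene across libraries are given as CPM, the count scaled to a common library size by TMM. For dsk1 itself the wild-type mean was 100.5 ± 1.45 CPM and the mutant mean 12.3 ± 1.26 CPM (SD, n = 3 each). The ura4 gene, often used as a marker for gene replacement, was without a count in the wild type and stood at 96.2 ± 20.3 CPM (SD, n = 3) in the mutant, so the groups also differ in ura4. Wild-type replicate 2 stood apart, at -37.9 on the first principal component against -9.54 and -2.29 for the other wild-type libraries and 13.1 to 19.6 for the mutant. Some mating genes differed there and others did not. The P-factor gene map2 had 88.7 CPM in that library against 33.2 and 24.7 CPM in wild-type replicates 1 and 3, and the P-factor receptor gene mam2 had 14.3 CPM against 52.9 and 58.4 CPM. The pheromone receptor gene map3 had 47.0 CPM there against 28.0 and 21.3 CPM. The M-factor gene mfm1 had 1.28 CPM there against 0.952 and 1.38 CPM, and mam3 had 127 CPM against 119 and 104 CPM. In the mutant libraries map2 had 19.9 to 21.2 CPM, mam2 70.5 to 104 CPM and mfm1 1.61 to 2.53 CPM. Mutant values were 24.3 to 30.3 CPM for map3 and 111 to 130 CPM for mam3. The groups did not overlap for map2, mam2 and mfm1, as for 32.1% of all tested genes. They overlapped for map3 and mam3. Mating type is not given in the labels, and the cause of these differences was not tested. The meiotic regulator gene mei4 had 27.8 to 38.3 CPM in the wild type and 39.9 to 43.3 CPM in the mutant, without overlap. The meiosis gene rec8 was lower in the mutant, at 10.8 to 14.7 CPM against 22.0 to 26.1 CPM, also without overlap. For the meiosis genes spo5 and mug5 the groups overlapped.

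The members are close relatives in sequence. Reads that fall wholly in identical stretches cannot be placed with certainty, and how such reads were counted is not stated. This bears on the values below to a degree that differs between members. In RefSeq assembly ASM294v3, where all 8 systematic names were found, each member has 1 exon and a coding sequence of 1557 to 1674 bases. The genes ght6, ght5, ght8 and ght1 lie in that order within 30.5 kb of chromosome III, a span with 10 protein-coding genes. The genes ght2, ght4 and ght7 are on chromosome II and ght3 is on chromosome I. The coding sequences of ght5 and ght8 were identical at 92.2% of 1638 aligned bases, those of ght3 and ght4 at 81.8%, and those of ght1 with ght5 or ght8 at 78.6%. The least similar of the 28 pairs was ght3 with ght6, at 63.1%.

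**Figure D1:**
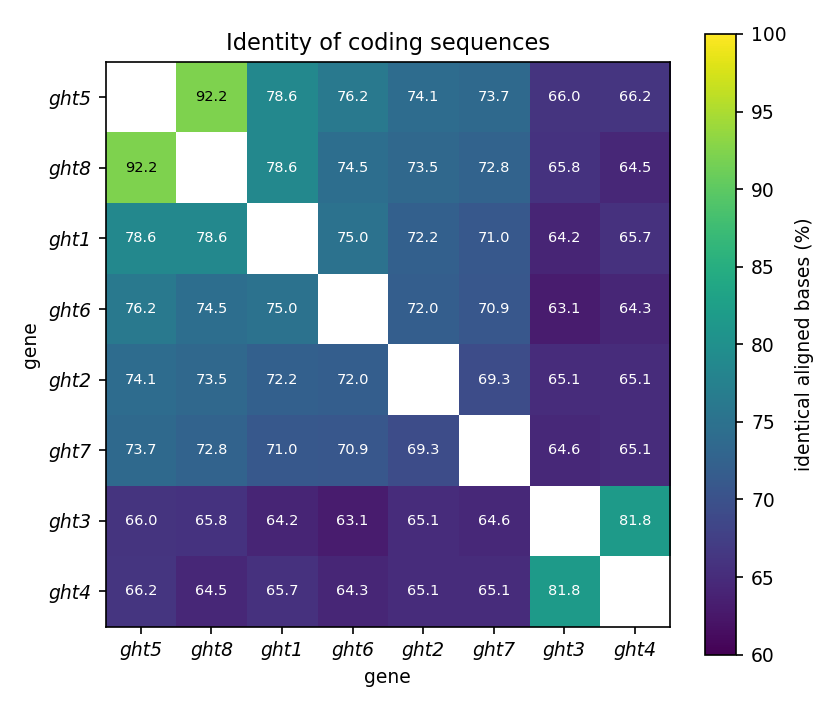
Percent of aligned bases that are identical between the coding sequences of each pair of hexose transporter genes (rows and columns, RefSeq ASM294v3), with the value in each cell and colour from 60% to 100%. The pair ght5 and ght8 stands out at 92.2%, followed by ght3 and ght4 at 81.8%.

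The longest stretches shared letter for letter are printed here because they mark where counts of a pair can be exchanged. The first is identical in ght5 (chrIII:213319-213566, plus strand) and ght8 (chrIII:227147-227394, minus strand) over 248 bases, bases 1007 to 1254 of both coding sequences. Its capitals mark the 182 bases that ght1 also has (chrIII:233291-233472, minus strand). The second is identical in ght3 (chrI:83791-84030, plus strand) and ght4 (chrII:158410-158649, plus strand) over 240 bases, bases 856 to 1095 of both. All coordinates are those of ASM294v3, found by matching these sequences to it, and the build used by the authors is not given in the sources used here.
ght5 and ght8: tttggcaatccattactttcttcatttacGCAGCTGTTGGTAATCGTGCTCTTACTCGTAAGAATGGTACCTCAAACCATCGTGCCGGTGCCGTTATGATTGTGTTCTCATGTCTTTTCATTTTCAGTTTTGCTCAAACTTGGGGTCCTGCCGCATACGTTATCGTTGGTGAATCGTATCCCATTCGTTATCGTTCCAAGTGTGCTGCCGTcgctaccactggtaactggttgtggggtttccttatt
ght3 and ght4: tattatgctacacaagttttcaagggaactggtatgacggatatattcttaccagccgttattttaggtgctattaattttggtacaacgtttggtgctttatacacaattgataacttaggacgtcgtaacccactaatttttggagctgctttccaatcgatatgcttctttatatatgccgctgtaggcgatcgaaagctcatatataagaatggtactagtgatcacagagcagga

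Other parts of the genes tell the pairs apart. In the 60-base windows that differ most, 20 bases differ between ght5 (chrIII:213887-213946, plus strand) and ght8 (chrIII:226764-226823, minus strand), and 22 bases differ between ght3 (chrI:84487-84546, plus strand) and ght4 (chrII:159109-159168, plus strand). Capitals mark the differing bases, and all of these windows lie near the 3′ end of the coding sequence.
ght5: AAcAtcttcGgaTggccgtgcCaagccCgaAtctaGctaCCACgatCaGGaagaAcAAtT
ght8: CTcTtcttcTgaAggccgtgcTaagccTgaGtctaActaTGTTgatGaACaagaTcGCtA
ght3: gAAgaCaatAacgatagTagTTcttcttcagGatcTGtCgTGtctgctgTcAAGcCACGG
ght4: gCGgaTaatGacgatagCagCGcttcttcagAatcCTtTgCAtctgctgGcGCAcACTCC

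Counted as 50-base windows, 37.4% of the ght5 coding sequence and 38.2% of that of ght8 had a second exact copy in the genome. The share was 13.1% for ght3 and for ght4, 9.48% for ght1, 2.5% for ght6, and 0 for ght2 and ght7. With the alignment cut into 3 equal parts, ght5 and ght8 differed at 31, 35 and 62 bases from the 5′ to the 3′ part. Antisense transcripts are a further limit, as the use of strand in counting is not given in the sources used here. RefSeq places a long noncoding RNA on the opposite strand of 7 members, covering the whole of ght6 and 84.6% of ght7, and none on ght5. A long noncoding RNA on the same strand as ght4 covers 19.7% of that gene. Reads of a member and of such an RNA cannot be told apart here.

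**Figure D2:**
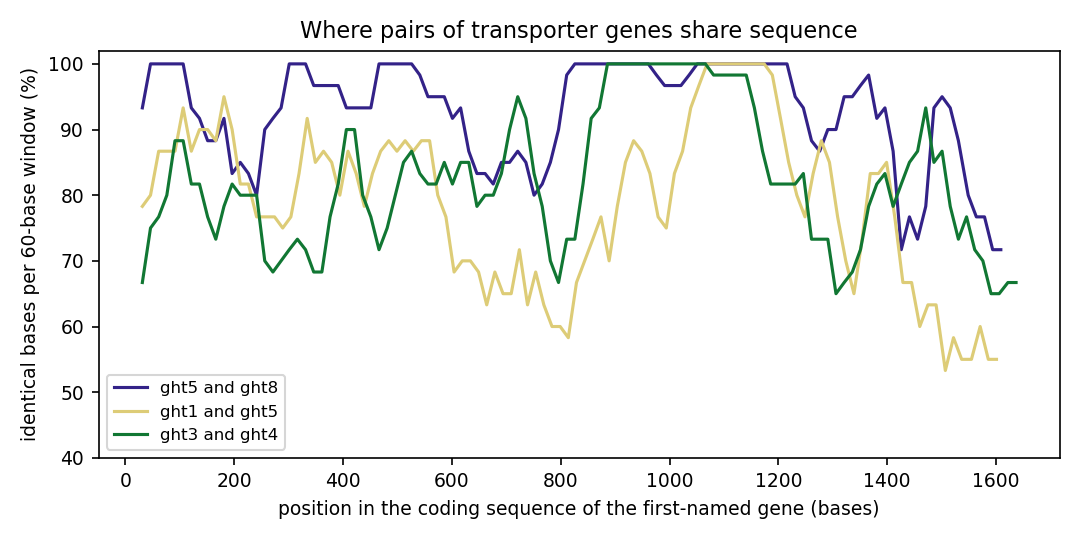
Percent of identical bases in 60-base windows (vertical axis) along the coding sequence of the first-named gene (horizontal axis, bases) for 3 pairs of transporter genes. All 3 lines reach 100% in the part that holds the printed shared stretches, and they fall to minima of 71.7% for ght5 and ght8, 65.0% for ght3 and ght4, and 53.3% for ght1 and ght5.

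Levels of different members were compared as the authors' FPKM, fragments per kilobase of transcript scaled to sequencing depth, which sets genes of different length on a common scale. In each of the 6 libraries ght5 and ght8 were the highest members, followed by ght2, ght6, ght4, ght1, ght3 and ght7 in that order. Both leading genes ranked above at least 90.4% of all genes in the table in either group, and ght7 ranked above 2.33% of them in the wild type.

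The high-affinity glucose transporter gene ght5 had 368, 354 and 641 FPKM in wild-type replicates 1, 2 and 3 and 200.02, 399 and 279 FPKM in the mutant libraries. The gene ght8, for a predicted hexose transporter, had 353, 686 and 307 FPKM in the wild type and 228, 267 and 244 FPKM in the mutant. Wild-type replicate 3 was thus the highest library for ght5 and wild-type replicate 2 the highest for ght8. The ranges of ght5 and ght8 overlapped in each group, so these neighbours in the order did not differ beyond their spread.

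The third gene in the order was ght2, a glucose transporter gene, with 95.6, 189 and 78.99 FPKM in the wild type and 136, 118 and 104 FPKM in the mutant. The fructose-preferring transporter gene ght6 had 37.3, 36.4 and 36.7 FPKM in the wild type and 34.7, 40.1 and 25.7 FPKM in the mutant. For ght4, the close relative of the gluconate transporter gene, the values were 23.6, 16.2 and 26.3 FPKM in the wild type and 20.7, 23.7 and 15.8 FPKM in the mutant. The ranges of ght6 and ght4 did not overlap in either group, and those of ght2 lay above both.

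The glucose transporter gene ght1 was low, at 4.91, 4.67 and 5.49 FPKM in the wild type and 2.16, 3.9 and 1.55 FPKM in the mutant. The gluconate transporter gene ght3 had 0.84, 1.89 and 1.47 FPKM in the wild type and 0.44, 0.45 and 0.88 FPKM in the mutant. That is 28, 64 and 54 counts against 17, 16 and 28 counts. The predicted transporter gene ght7, which lies 38.5 kb from the end of the assembled chromosome, had 8 to 16 counts in a library, and 0.26 to 0.5 FPKM. Within each group the ranges of ght1, ght3 and ght7 did not overlap one another.

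**Figure D3:**
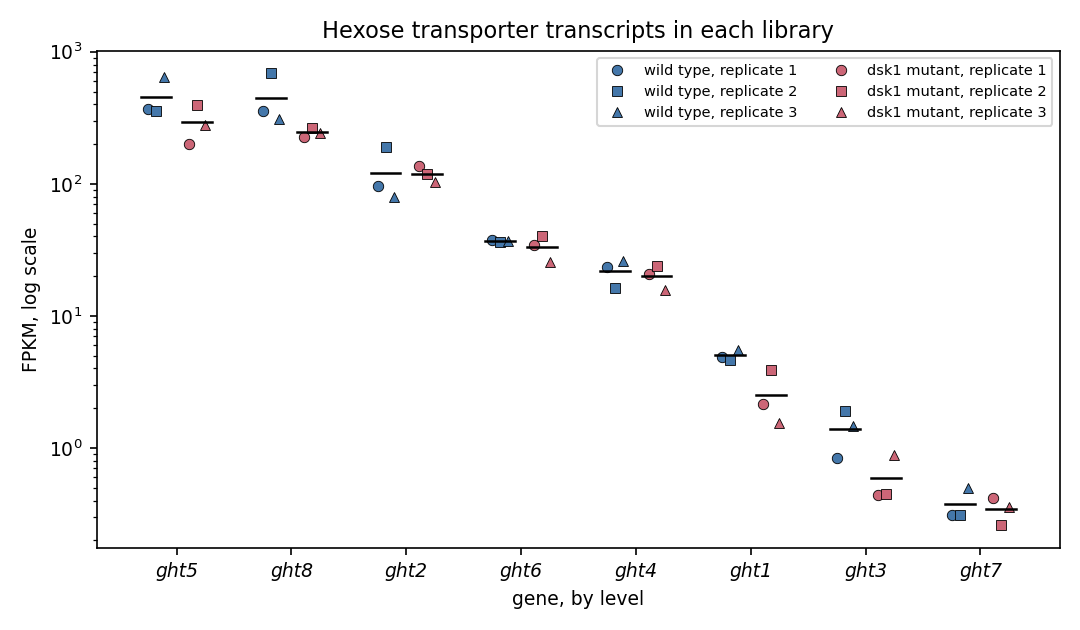
FPKM on a log scale (vertical axis) of the 8 hexose transporter genes, ordered by level (horizontal axis), in 3 wild-type libraries (blue) and 3 dsk1 mutant libraries (red). Each point is a library, its shape gives the replicate number and bars are group means. The order from ght2 down is the same in all libraries, while ght5 and ght8 exchange the lead.

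Together ght5 and ght8 made up most of the family. Of the summed FPKM of the 8 members, ght5 held 42.5% ± 15.5 (SD, n = 3) in the wild type and 40.2% ± 7.41 (SD, n = 3) in the mutant. The share of ght8 was 40.4% ± 12.6 (SD, n = 3) and 34.8% ± 2.98 (SD, n = 3). In wild-type replicate 2 ght8 held 53.3% and ght5 27.5%, and in wild-type replicate 3 ght8 held 27.99% and ght5 58.4%. The leading gene thus differed between wild-type libraries, and the shares of the groups overlapped for all 8 members.

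Which of these leads depends on the length behind the FPKM. The counts and FPKM in the deposited table imply a length of 4211 bases for ght8, against 2510 bases of exon in RefSeq, a ratio of 1.68. For the other 7 members this ratio was 0.991 to 1.1, and the median of 4709 genes was 1.02. With CPM per kilobase of RefSeq exon, ght8 was above ght5 in 5 of 6 libraries, against 2 of 6 with the deposited FPKM. The share of ght8 was then 51.4% ± 13.3 (SD, n = 3) in the wild type and 46.1% ± 3.41 (SD, n = 3) in the mutant. The order of the other members stayed the same in all 6 libraries. On that scale ght2 was the only member whose shares did not overlap, at 5.78% to 10.5% in the wild type and 11.0% to 17.1% in the mutant. A share also moves with the levels of the other members. The level of ght2 itself overlapped between the groups, at 170 to 473 CPM in the wild type and 246 to 292 CPM in the mutant.

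Summed over the 8 members, the family stood at 884, 1288 and 1098 FPKM in the wild type and 622, 852 and 670 FPKM in the mutant. The sums of the groups did not overlap, and the wild-type mean was 1.53-fold the mutant mean, or 1.39-fold without wild-type replicate 2. Summed as CPM, which no gene length enters, these values were 1.67-fold and 1.35-fold. Taken singly and by CPM, 32.1% of all tested genes had groups without overlap, and 16.6% were without overlap and lower in the mutant. Since ght5 and ght8 share reads that cannot be placed with certainty, their sum is given as well. It was 721, 1040 and 949 FPKM in the wild type and 428, 665 and 522 FPKM in the mutant. These sums did not overlap either, with a wild-type mean 1.68-fold the mutant mean, or 1.55-fold without wild-type replicate 2. As CPM these values were 1.80-fold and 1.47-fold. No test was made on sums over members. In RNA of bulk cells, less transcript per cell and fewer cells with the transcript cannot be told apart.

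**Figure D4:**
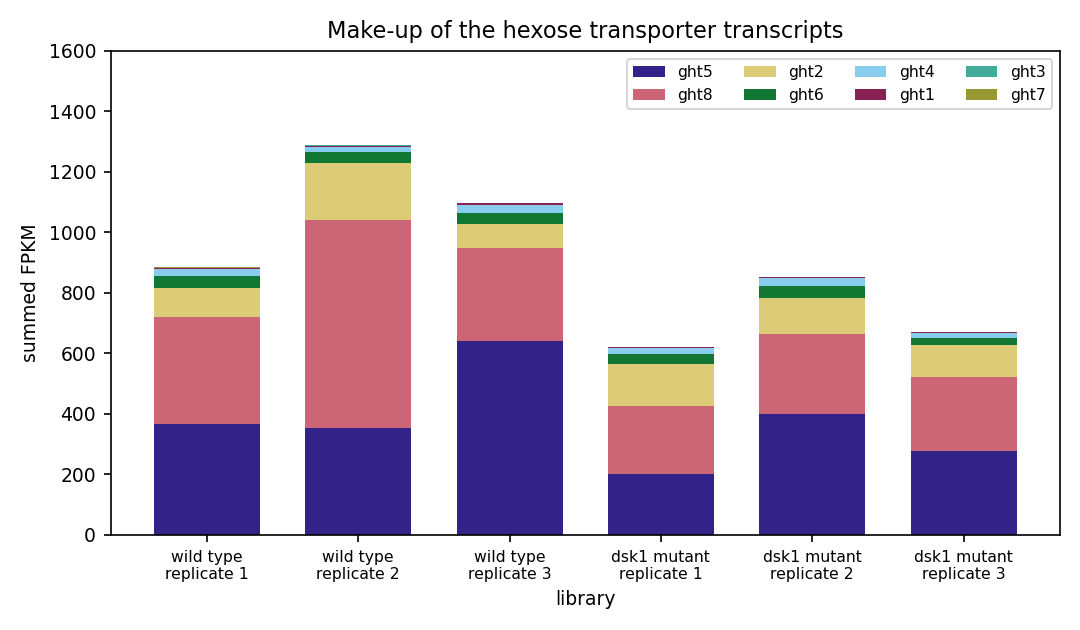
FPKM summed over the 8 hexose transporter genes (vertical axis, bars from 0) in each of the 6 libraries (horizontal axis), with each gene's part in its own colour. The wild-type bars reach 884 to 1288 and the mutant bars 622 to 852, and ght5 and ght8 make up most of each bar.

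The comparison of the mutant with the wild type used counts, in 1 fit over the 4987 genes that passed the filter, where 2.03% of genes were called at an adjusted p under 0.05, and 1.58% were called lower in the mutant. No hexose transporter gene was called: 0 of 8 passed edgeR's quasi-likelihood test with Benjamini-Hochberg adjustment, while 3 of 8 were lower at an unadjusted p under 0.05, as were 13.5% of all genes, with 22.7% of all genes past that level in either direction. The groups did not overlap for 2 of 8 members, ght1 and ght8, against 32.1% of all tested genes. The DESeq2 Wald test called 2 members, ght1 and ght8, in a setting where it called 11.4% of all genes, and limma on log2 FPKM called 0. All 8 log2 fold changes, mutant over wild type, were below 0, with a median of -0.43 against -3e-04 over all genes tested, but the signs for ght2 and ght7 turned when single libraries were left out. Members share sequence and libraries, so these signs are not 8 independent results.

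Of the major genes, ght8 had 1454, 3228 and 1243 CPM in the wild type and 916, 1060 and 1086 CPM in the mutant. All mutant libraries lay below all wild-type libraries, as in 16.6% of all tested genes. The log2 fold change of ght8 was -0.95 (SE 0.35, 95% interval -1.77 to -0.13, adjusted p = 0.176). Wild-type replicate 2 was far above the other libraries, and without it the value was -0.40 (adjusted p = 0.125). With the DESeq2 Wald test the adjusted p of ght8 was 0.0498, and in the authors' deposited table it was 0.0511.

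For ght5 the levels were 798, 877 and 1366 CPM in the wild type and 424, 833 and 654 CPM in the mutant. The groups overlapped, since mutant replicate 2 lay above wild-type replicate 1. The log2 fold change of ght5 was -0.67 (SE 0.29, 95% interval -1.36 to 0.02, adjusted p = 0.227). It was -0.39 without wild-type replicate 3, -0.45 without mutant replicate 1 and -0.91 without mutant replicate 2.

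For the minor glucose transporter gene ght1 the levels were 14.4, 15.7 and 15.8 CPM in the wild type and 6.18, 11.0 and 4.92 CPM in the mutant. The wild-type libraries were close together, and all 3 lay above the mutant libraries. The log2 fold change of ght1 was -1.05 (SE 0.30, 95% interval -1.74 to -0.35, adjusted p = 0.11), and it was -0.83 to -1.46 with single libraries left out. In the authors' deposited table ght1 was the only member with an adjusted p under 0.05, at 0.0197, as were 11.0% of all genes in that table. With the DESeq2 Wald test run here its adjusted p was 0.0162.

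The lowest log2 fold change of the family was that of the gluconate transporter gene ght3, at -1.31 (SE 0.47, 95% interval -2.40 to -0.23, adjusted p = 0.165). Its groups overlapped, with 1.67 CPM in wild-type replicate 1 against 1.89 CPM in mutant replicate 3. Its close relative ght4, which had far more reads, was at -0.17 (SE 0.17, adjusted p = 0.551), and at -0.30 without wild-type replicate 2. The coding sequences of ght3 and ght4 are identical over 240 bases, and the part of ght4 reads in the ght3 counts was not tested.

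The groups overlapped for the other members. For ght6 the log2 fold change was -0.19 (SE 0.15, 95% interval -0.54 to 0.15, adjusted p = 0.445), with 71.0 to 81.9 CPM in the wild type and 54.8 to 76.1 CPM in the mutant, and it was -0.13 without wild-type replicate 2. For ght7 it was -0.15 (SE 0.38, 95% interval -1.04 to 0.74, adjusted p = 0.826). At this depth neither a lower nor a higher level was detected, and the interval leaves room for both. For ght2 the levels were 210, 473 and 170 CPM in the wild type and 292, 250 and 246 CPM in the mutant, a log2 fold change of -0.11 (SE 0.36, adjusted p = 0.864). Here wild-type replicate 2 lay above the mutant libraries and the other wild-type libraries lay below them. Without that library ght2 was at 0.47 (SE 0.13, adjusted p = 0.0597), where 9.32% of all genes were called.

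**Figure D5:**
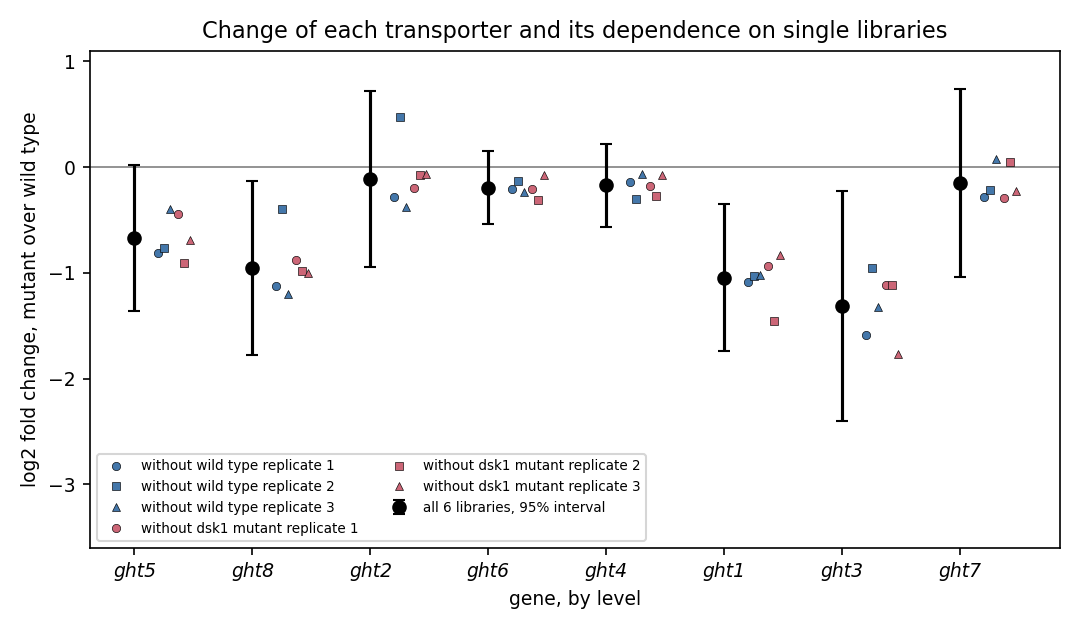
Log2 fold change of each hexose transporter gene, mutant over wild type (vertical axis), with all 6 libraries (black, bars are 95% intervals from the edgeR fit) and with each library left out in turn (coloured points). Leaving out wild-type replicate 2 moves ght8 from -0.95 to -0.40 and ght2 from -0.11 to 0.47.

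Variation between replicates differed from member to member. In wild-type replicate 2 ght8 was 2.39-fold and ght2 2.49-fold the mean of wild-type replicates 1 and 3, and 1.24% and 1.13% of 4758 genes with at least 5 CPM had a larger ratio there. In wild-type replicate 3 ght5 was 1.63-fold the mean of wild-type replicates 1 and 2, a ratio that 3.24% of those genes exceeded. In the mutant, ght1 in replicate 2 was 1.99-fold the mean of mutant replicates 1 and 3, and 0.105% of genes had a larger ratio. In the same library ght5 was 1.55-fold the mean of the other mutant libraries, with 0.673% of genes above it. By contrast ght6 varied 1.15-fold between its highest and lowest wild-type library and 1.39-fold between those of the mutant.

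Pairs of members that lie near each other on chromosome III, ght1 with ght8 and ght5 with ght6, were compared through the ratio of their FPKM within each library. The log2 ratio of ght1 to ght8 was -6.39 ± 0.72 (SD, n = 3) in the wild type and -6.70 ± 0.60 (SD, n = 3) in the mutant (two-sided exact permutation p = 0.6). The log2 ratio of ght5 to ght6 was 3.57 ± 0.48 (SD, n = 3) in the wild type and 3.09 ± 0.49 (SD, n = 3) in the mutant (two-sided exact permutation p = 0.6). With 3 libraries against 3 the smallest p such a test can give is 0.1, so it could not have passed 0.05. The libraries of the groups overlapped for both ratios.

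Genes directly beside the members were also followed. Of the neighbours that are not members, 13 were tested and edgeR called 0, with 3 past an unadjusted p of 0.05, a share close to the 22.7% of all tested genes. Next to ght1, SPCC1529.01 had 17.7, 25.5 and 18.9 CPM in the wild type and 9.14, 15.3 and 10.8 CPM in the mutant, a log2 fold change of -0.82 (adjusted p = 0.12). On either side of ght6, mug146 was at -1.74 (adjusted p = 0.0977) and SPCC1235.17 at -0.99 (adjusted p = 0.0908), while ght6 itself was at -0.19. The groups did not overlap for SPCC1529.01, mug146 and SPCC1235.17, as for 32.1% of all tested genes. Without wild-type replicate 2, SPCC1529.01 was at -0.64, mug146 at -1.20 and SPCC1235.17 at -0.98. The genes dga1 beside ght5 and dbl5 beside ght8 were at 0.07 and -0.11, and without wild-type replicate 2 at -0.16 and -0.10. The maltase gene mal1, which lies beside ght4, was at 0.38 (adjusted p = 0.253), also with groups that did not overlap. Wild-type replicate 2 had 302 CPM of it, and the other libraries 459 to 553 CPM. Without that library mal1 was at 0.20.

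Genes whose level over the 6 libraries was most like that of a member were named by Pearson's correlation of log2 CPM among 4752 genes, as a description only, since 6 libraries allow many close matches and all share the same depth and preparation. For ght8 these were mug37 (r = 0.998) and SPAC27E2.03c (r = 0.996), and for ght2 they were nem1 (r = 0.998) and acr1 (r = 0.99). For ght5 they were SPBC530.15c (r = 0.987) and sed5 (r = 0.956), and for ght1 wtf5 (r = 0.993) and spo3 (r = 0.986). For ght3 they were pre5 and rps13, for ght4 usp102 and abc3, for ght6 gpi3 and the assembled locus MSTRG.5296, and for ght7 SPAC9E9.02 and pex22, with r between 0.92 and 0.994. Among members the closest pair was ght1 with ght6 (r = 0.85), and ght5 with ght8 gave r = 0.364 although they share the most sequence.

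Regulators of hexose uptake were read from lists of genes of the pathway. In the list on glucose signalling and repression, 0 of 19 genes were called by edgeR, and an unadjusted p under 0.05 was found for 2 higher and 2 lower genes. Over all tested genes 2.03% were called, and 22.7% passed that unadjusted level in either direction. The median log2 fold change of the list was 0.09. The repressor gene scr1 had 69.9, 115 and 69.8 CPM in the wild type and 59.5, 72.1 and 70.8 CPM in the mutant, a log2 fold change of -0.33 (adjusted p = 0.378), and -0.05 without wild-type replicate 2. The kinase gene ssp2 was at 0.05 (adjusted p = 0.848), and at -0.05 without that library. The gene for the regulatory subunit of protein kinase A, cgs1, was at 0.67 (adjusted p = 0.0661), with 41.6, 39.3 and 38.3 CPM in the wild type and 73.5, 63.3 and 53.0 CPM in the mutant. The AMP-activated kinase subunit gene cbs2 was at -0.48 (adjusted p = 0.0891) and the corepressor gene tup12 at 0.44 (adjusted p = 0.136). Without wild-type replicate 2, cgs1 and the corepressor gene tup11 were called higher and cbs2 lower, in a fit that called 9.32% of all genes.

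In the list on sorting of Ght5 to the cell surface, which holds the target of rapamycin complex TORC2, its kinase Gad8, arrestins and ubiquitin ligases, 0 of 14 genes were called by edgeR, and an unadjusted p under 0.05 was found for 1 higher and 0 lower genes. Among all tested genes these shares were 2.03% called and 22.7% past the unadjusted level in either direction. The median log2 fold change was -0.01. The ubiquitin ligase gene pub3 was at 0.37 (adjusted p = 0.13), the TORC2 subunit gene ste20 at 0.28 and the kinase gene tor1 at 0.31. The kinase gene gad8 was at -0.11 (adjusted p = 0.675). Without wild-type replicate 2, tor1 was at 0.19 and gad8 at 0.05, the median was 0.05 and 0 genes of this list were called.

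Steps that follow uptake were also examined. Of 16 genes of hexose phosphorylation, glycolysis and the pentose phosphate branch 1 was called, against 2.03% of all tested genes. The list had a median log2 fold change of -0.32. The called gene was the phosphogluconate dehydrogenase gene gnd1 (SPBC660.16), with 2025, 2311 and 1903 CPM in the wild type and 1049, 1163 and 1273 CPM in the mutant. On the log2 scale gnd1 fell by 0.84, with an SE of 0.16 and an adjusted p of 0.0445. The glucose-6-phosphate dehydrogenase gene zwf1, of the same branch, was at -0.89 (adjusted p = 0.126), with 1216, 1868 and 913 CPM in the wild type and 712, 588 and 852 CPM in the mutant. Without wild-type replicate 2 zwf1 was at -0.57. The enolase gene eno102 was at -0.41 (adjusted p = 0.139), gpd3, for glyceraldehyde phosphate dehydrogenase, at 0.60 (adjusted p = 0.143) and the hexokinase gene hxk2 at -0.19 (adjusted p = 0.573). Without wild-type replicate 2, gnd1 and eno102 were called lower, where 9.32% of all genes were called, hxk2 was at -0.02 and the median was -0.04. In 13 of the 16 genes wild-type replicate 2 was the highest wild-type library, against 43.9% of all tested genes and 4 of the 8 transporters. Its part in the list's median and in the values of ght8 and ght2 was measured only by leaving it out.

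In the list on use of other carbon sources, 1 of 14 genes was called, against 2.03% of all tested genes. The median log2 fold change was 0.00, or -0.21 without wild-type replicate 2. The dihydroxyacetone kinase gene dak2 had 106, 87.9 and 81.6 CPM in the wild type and 54.7, 45.0 and 53.5 CPM in the mutant. On the log2 scale dak2 fell by 0.85, with an SE of 0.15 and an adjusted p of 0.0358. The invertase gene inv1 and the glycerol dehydrogenase gene gld1 were at -0.68 (adjusted p = 0.146) and -0.86 (adjusted p = 0.182). The gluconate uptake inducer gene gti1 was at 0.37 (adjusted p = 0.176), with non-overlapping groups, and ght3 was at -1.31 with overlapping groups. The glucose-repressed gene fbp1, for fructose bisphosphatase, had 203, 85.2 and 218 CPM in the wild type and 256, 320 and 299 CPM in the mutant, at 0.79 (adjusted p = 0.206). Wild-type replicate 2 was thus lowest for fbp1 and highest for ght8 and ght2. Without it dak2 and gal10 were called lower and fbp1 and gti1 higher, with fbp1 at 0.47, again where 9.32% of all genes were called.

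Promoter windows of 250 bases before to 50 after the annotated gene start were searched on both strands for letters of known motifs. Sites of the Mig1 family, to which Scr1 belongs, were searched as GCGGGG or CCGGGG and as GTGGGG or CTGGGG, and stood in the windows of ght1, ght4 and ght8, against 7.08% of 5112 promoters. The motif CCCCTC, bound by the activator Rst2, stood in the windows of 0 members, against 2.11% of promoters. The letters TGACGT stood in the window of ght2 only, against 5.91% of promoters. The letters CCAAT stood in those of ght2, ght7 and ght8 (42.2% of promoters), and TATAAA in those of ght1, ght2, ght4, ght5 and ght6 (48.1%). For ght3, ght5, ght6 and ght7 RefSeq gives no leader before the start codon, so their windows are placed by that codon and may miss the promoter. These matches are letters only.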

How the data were processed

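RNA was extracted with Trizol, selected with oligo(dT) and sequenced after PCR, per the labels' protocols. Tools in the submitters' processing notes are HISAT2 and Bowtie2, StringTie, RSEM, fastp and DESeq2, without versions. The deposited table holds counts and FPKM per gene in every library, per the file headers. It also holds the authors' log2 fold changes with a p-value, raw and adjusted. Counts had no decimals, and no source used here says whether they were rounded.

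Counts were tested with edgeR 4.0.16 (quasi-likelihood, TMM, default filter, genotype as the only term) in R 4.3.3, with Benjamini-Hochberg adjustment over 4987 genes, and 173 of 5160 genes were left out. Alternatives used DESeq2 1.42.0, and limma 3.58.1 on log2 FPKM. A count of 3 in a library is 0.151 to 0.202 CPM, a floor that covers counting error only, since the protocols describe PCR and no molecular identifiers. The test was checked on simulated data. Replicates differed beyond sampling noise, as chi-square divided by its degrees of freedom was 26.9 to 281 between replicates.

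RefSeq ASM294v3 supplied names, lengths, neighbours and sequences, aligned with Biopython 1.88. Of 63 list names, 63 matched a gene. Members, lists and the rule for named genes (all members, the called or up to 3 leading members of a list, scr1, ssp2, gad8, hxk2, neighbours, the most similar genes) were chosen with earlier results of these data known. The genes fbp1, tup11, gal10, ura4, map2, map3, mam2, mam3, mfm1, mei4, rec8, spo5 and mug5 were named after their values were seen.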

Additional observations from a re-analysis of the deposited data

How the results depend on the processing

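Over 17 alternatives, 122 of 131 member values kept their sign and their side of the threshold. The sign of ght2 turned without wild-type replicate 2 (0.47), with limma on log2(FPKM + 1) (0.0745, also without the filter), with limma on log2(FPKM + 0.1) (0.0758) and with the replicate block (0.0375). That of ght7 turned without wild-type replicate 3 (0.0779) and without mutant replicate 2 (0.0443). The DESeq2 Wald test called 571 genes and 2 members, ght1 (-1.05) and ght8 (-0.95), against 101 genes and 0 members with edgeR, and the cause was not tested. With single libraries left out, 3 to 466 genes and 0 members were called, in fits with fewer samples. The replicate block left 3 genes called and 0 members. Deviations of same-numbered libraries from their group means correlated at 0.165, -0.358 and -0.187, so no pairing by replicate number was seen. With so few libraries these values cannot settle whether the numbers pair them, and the labels do not say. Leaving out each library gave log2 fold changes of -1.46 to -0.83 for ght1, -0.38 to 0.47 for ght2, -1.77 to -0.96 for ght3, -0.30 to -0.07 for ght4, -0.91 to -0.39 for ght5, -0.31 to -0.08 for ght6, -0.29 to 0.08 for ght7 and -1.20 to -0.40 for ght8. The log2 ratios of ght1 to ght8 and of ght5 to ght6 differed between groups by -0.72 to -0.02 and -0.65 to -0.20 there. As alternatives chosen after seeing the data, RefSeq exon length moved the mutant share of ght8 from 34.8% to 46.1%. Without wild-type replicate 2, 3 genes were called in the signalling list, 0 in the sorting list, 2 in the glycolysis list and 4 in the carbon source list, in a fit that called 9.32% of all genes. Depth limits ght7 and ght3 most, with at most 16 and 64 counts in a library.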
